A study of Taeniopygia guttata with 23 samples.

Results

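Long autosomal H3K9me3 domains are stretches of at least 20 kb on chromosomes other than Z that carried H3K9me3 in the auditory forebrain of day 67 male zebra finches (Taeniopygia guttata). They were found by merging the overlapping or touching H3K9me3 islands (intervals called enriched in 1 library) of the 4 day 67 libraries, and by keeping merged regions of at least 20 kb with an island in all 4. Of 32033 merged regions, 8975 had an island in all 4 libraries, 7627 of these lay outside Z, and 276 were long enough. Every merged autosomal region of at least 20 kb had an island in all 4 libraries, so the demand for all 4 removed none. The domains were thus selected on the day 67 H3K9me3 islands, and their length and day 67 H3K9me3 cover are given as a description.

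The auditory forebrain is the part of the songbird brain that processes heard song, which young males learn from an adult male. Isolate males were housed with 2 adult females from day 21 after hatching, and Tutored males with 1 adult male and 1 adult female from that day on. Birds of both groups were sampled on day 67 by the sample labels (day 65 in the series' design text). P32 males were taken from their home aviary on day 32. Each of the marks H3K9me3, H3K27me3, H3K4me3 and RNA polymerase II (Pol II) had 2 Isolate, 2 Tutored and 1 P32 library, and the day 67 libraries are called P67 together. The labels do not say how many birds a library held, so the spread between replicates may be technical, and whole tissue cannot tell fewer marked cells from less mark per cell. The tissue label could not be checked against marker genes, because the coordinates belong to a genome build that the sources used here do not name and no gene was placed on them.

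H3K9me3, trimethylation of lysine 9 of histone H3, marks heterochromatin, where it is bound by HP1 proteins and keeps repeats, gene clusters and chromosome ends compact and silent. H3K27me3 is laid down by the Polycomb repressive complex and covers silent developmental genes. H3K4me3 sits at the promoters of active or poised genes, and Pol II is the enzyme that transcribes genes.

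The H3K9me3 lists held 1551076 to 2133615 reads in islands, the P32 library having the most, and they covered 5.92% to 8.10% of the genome, 7.24% in P32. Replicate 1 libraries of both P67 groups had fewer reads per kb of island (19.1 in each) than replicate 2 libraries (30.7 in Isolate and 34.2 in Tutored) and covered more of the genome. A domain without an island in a library has an unknown, not a zero, read count there, since the lists hold no reads beyond the islands. The depth outside islands is unknown, so no interval for counting error is given.

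The 276 domains had a median length of 24.6 kb and added up to 7.62 Mb. They made up 3.62% of the 7627 shared autosomal regions and 13.1% of their length. Most were close to the limit, with 140 under 25 kb, 68 of at least 30 kb, 24 of at least 40 kb and 10 of at least 50 kb. The limit cut through a continuous range of lengths. Just inside it, at 20 kb, chr15:9372801-9392800 had 19.4 and 11.4 kb covered in Isolate, 16.6 and 11.2 kb in Tutored and 5.8 kb in P32, and chr1A:3608801-3628800 had 18.8 and 18.4 kb in Isolate, 19.8 and 18.4 kb in Tutored and 14.4 kb in P32. Just outside it, at 19.8 kb, chr11:7969601-7989400 had 19.2 and 17.6 kb covered in Isolate, 19.6 and 15.6 kb in Tutored and 17 kb in P32, and chr14:9898001-9917800 had 12.8 and 9.8 kb in Isolate, 18.8 and 14.2 kb in Tutored and 16.6 kb in P32.

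H3K9me3 islands covered 86.4% and 75.04% of the domains' bases in the 2 Isolate libraries, 85.9% and 73.5% in the 2 Tutored libraries and 60.8% in P32. The Isolate and Tutored values overlapped, and within each group replicate 1 stood above replicate 2. A typical domain was not 1 unbroken island, since the median number of islands per domain was 2 in replicate 1 and 3 in replicate 2 of both groups, and 2 in P32. Cover of at least 50% in each of the 4 P67 libraries was reached by 224 domains and cover of at least 90% by 29, while 8 domains fell under 25% in some P67 library. The domains held 10.7% and 11.8% of the island reads of the Isolate libraries, 11.01% and 11.97% of the Tutored libraries and 9.54% of the P32 library. The rule sets each domain end at the outermost island edge of any P67 library, which by itself lowers P67 cover at the ends. Cover was lower in the outer 10% of the length than farther in, in all 5 libraries. In the outer 10% of the length at each end it stood at 74.5% and 63.2% in Isolate, 74.8% and 62.8% in Tutored and 51.3% in P32, and in the middle 20% at 89.4% and 78.3% in Isolate, 89.9% and 75.8% in Tutored and 62.1% in P32. The 10 kb on each side of the domains were still covered to 40.6% and 33.4% in Isolate, 40.5% and 33.4% in Tutored and 32.2% in P32, several times the genome's share.

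**Figure D1:**
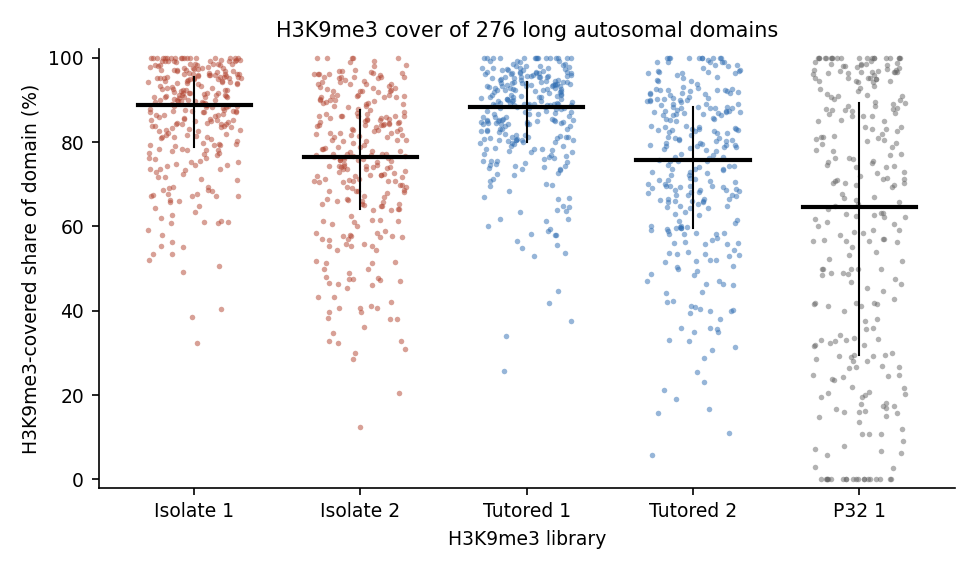
H3K9me3-covered share of each of the 276 domains (vertical axis, %, 1 point per domain) in each H3K9me3 library (horizontal axis); the thick bar is the median and the thin line the interquartile range. Medians are 88.8% and 76.5% in Isolate, 88.3% and 75.7% in Tutored and 64.5% in P32, where 20 domains lie at 0.

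**Figure D2:**
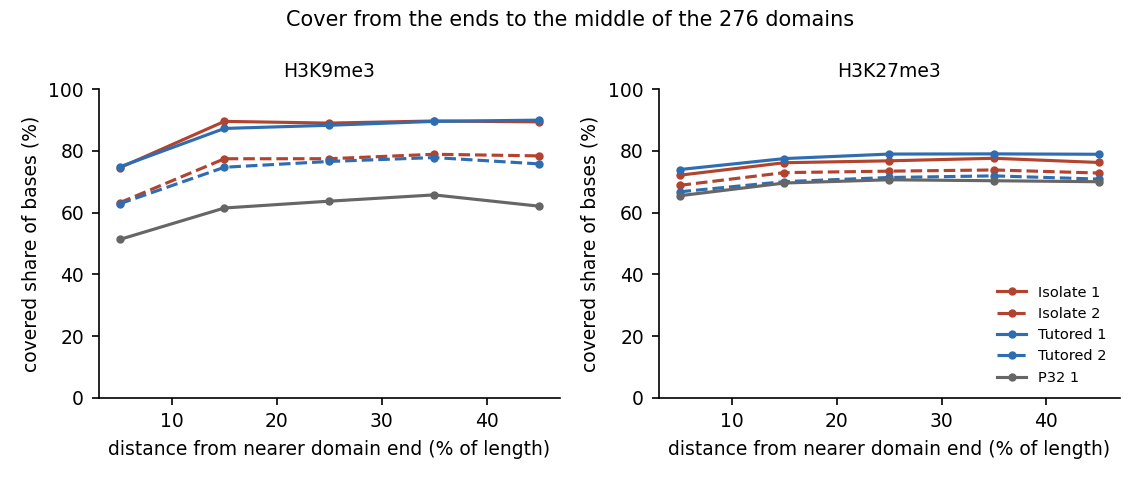
Share of bases covered by H3K9me3 (left) and H3K27me3 (right) from the outer 10% of the domains to their middle, as distance from the nearer end in % of domain length, 1 line per library (dashed for replicate 2). H3K9me3 is lowest in the outer 10% in each library, but the ends were set by the P67 H3K9me3 islands themselves. H3K27me3 changes less, for example 72.1% in the outer 10% and 76.2% in the middle in Isolate 1.

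The longest domains differed from each other in which other marks they carried and in how much H3K9me3 the P32 library showed. The longest, chr1:97169801-97260600 (90.8 kb), was covered over 86.4 and 81.8 kb in Isolate, 85.4 and 80.8 kb in Tutored and 77.4 kb in P32. It had no H3K27me3 in any of the 5 libraries. The second, chr4:14177001-14247600 (70.6 kb), was covered over 62.8 and 48.4 kb in Isolate, 61.2 and 41.8 kb in Tutored and 38.0 kb in P32, and H3K27me3 covered 4.53% to 22.1% of it in the 4 P67 libraries. The third, chr3:109938401-110001400 (63.0 kb), had 60.8 and 53.6 kb covered in Isolate, 59.0 and 54.0 kb in Tutored and 40.4 kb in P32. H3K27me3 covered 89.5% to 100% of that domain at P67, so the 3 longest domains span from no H3K27me3 to nearly full H3K27me3.

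Next in length were chr3:29071201-29128200 (57.0 kb), LGE22:630801-686000 (55.2 kb) and chr11:318601-372600 (54.0 kb), all with P32 cover of 89.5% to 98.6%. The first had 54.2 and 44.0 kb covered in Isolate, 53.2 and 52.8 kb in Tutored and 51.0 kb in P32. The LGE22 domain, on a small linkage group, had 52.2 and 55.2 kb covered in Isolate, 53.4 and 54.6 kb in Tutored and 54.4 kb in P32, and no H3K4me3 or Pol II island lay in it in any library. Its 4241 and 5258 reads in Isolate, 4330 and 6481 in Tutored and 5996 in P32 were the most of any domain in each of the 4 P67 libraries. The chr11 domain had 50.6 and 41.2 kb covered in Isolate, 51.6 and 37.8 kb in Tutored and 49.4 kb in P32, with P32 inside the P67 range.

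The other 4 of the 10 longest were less covered in P32 than in every P67 library. The domain chr6:16309001-16362600 (53.6 kb) had 45.6 and 40.4 kb covered in Isolate, 42.4 and 37.8 kb in Tutored and 33.8 kb in P32. At chr11:7641401-7693000 (51.6 kb) islands covered 50.2 and 41.4 kb in Isolate, 48.2 and 37.2 kb in Tutored and 28.4 kb in P32. The domain chr2:109294401-109345200 (50.8 kb) had 44.8 and 32.4 kb in Isolate, 43.2 and 37.8 kb in Tutored and 13.6 kb in P32. The greatest gap between the ages among the 10 was at chr3:31410401-31461000 (50.6 kb), with 40 and 40.4 kb covered in Isolate, 45.4 and 33.4 kb in Tutored and 1.4 kb in P32. H3K27me3 was present at all 4 of these domains at P67, over 77.9% to 100% of their bases.

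**Figure D3:**
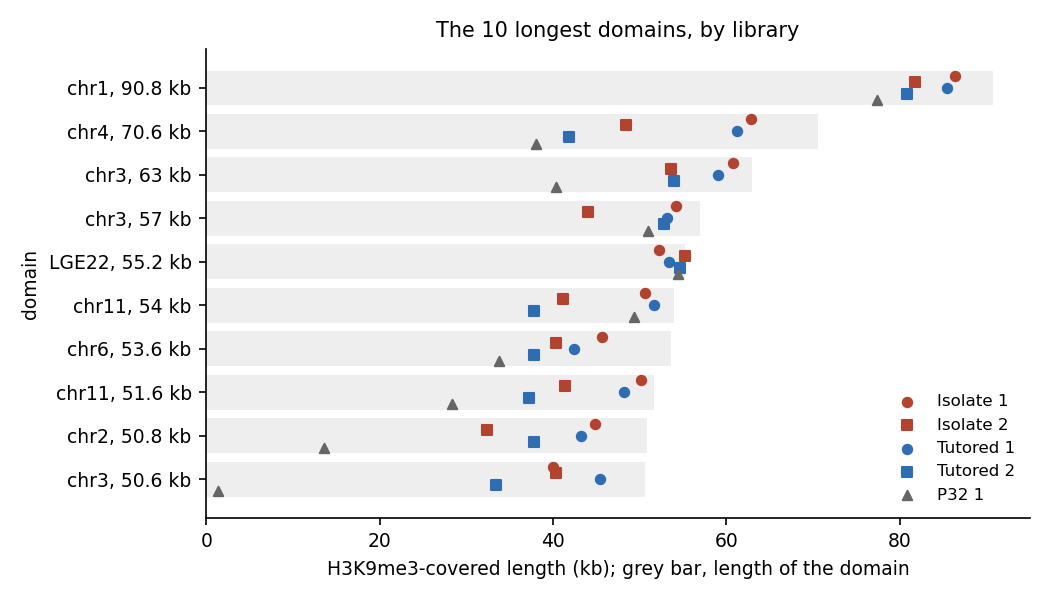
H3K9me3-covered length (horizontal axis, kb) of the 10 longest domains in each library; the grey bar is the length of the domain and each point is 1 library. P32 lies near the P67 libraries at the LGE22 domain (54.4 kb) and far below them at the shortest of the 10 (1.4 kb).

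The first comparison asked whether rearing without an adult male went with a different amount of H3K9me3 in the domains. It found no domain that differed. With edgeR's quasi-likelihood test on reads over all 8975 shared regions (percent called 0, Benjamini-Hochberg adjusted p under 0.05), 0 of 276 domains were called, 2 had an unadjusted p under 0.05 (129 of all regions), and DESeq2 and the fit with the replicate number as a block each called 0. The log2 fold of Isolate over Tutored had a median of -0.05 over the domains, against -0.01 over all regions, and 267 domains lay within 0.5 of 0. H3K9me3 CPM (reads scaled to the library's island reads) of both Isolate libraries were above both Tutored libraries at 27 domains (9.78%, beside 14.3% of all shared autosomal regions) and below both at 22 (7.97%, beside 8.63%). Compared within replicate numbers, reads scaled by edgeR's TMM were higher in Isolate in both at 66 domains and lower in both at 97. Of all 8975 regions, 2265 were higher in both and 2297 lower in both. The domains thus leaned to lower reads in Isolate while all regions were nearly even, and this lean was not tested. It depended on single libraries. The domains' median log2 fold was 0.01 without Isolate replicate 1 and 0.04 without Tutored replicate 2. It was -0.11 without Isolate replicate 2 and -0.08 without Tutored replicate 1. Covered share averaged 80.7% ± 8.03 in Isolate and 79.7% ± 8.78 in Tutored (SD, n = 2 each, exact permutation p = 0.667, two-sided, where the smallest possible is 0.333). The permutation did not pair libraries by replicate number, and each SD reflects only the gap between replicates 1 and 2.

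The count of 0 does not show that the groups were alike, since each had 2 libraries. The domains with the largest folds between them were as follows. At chr3:30856201-30876800, 158 and 388 reads in Isolate stood against 120 and 36 reads in Tutored (log2 fold 1.70, SE 0.70, edgeR adjusted p = 1.00). The low value there belongs to Tutored replicate 2 alone, in which islands covered 1.2 kb of the 20.6 kb. The next highest, chr3:20976401-21003600, had 313 and 333 reads in Isolate and 221 and 141 in Tutored (log2 fold 0.82). Lowest were chr6:27059201-27083000, with 198 and 150 reads in Isolate and 301 and 261 in Tutored (log2 fold -0.67), and chr24:7365801-7387200, with 205 and 392 reads in Isolate and 268 and 695 in Tutored (log2 fold -0.63). None of these 4 passed the test.

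The second comparison set P67 against P32, whose birds were other males, taken from their home aviary. The choice of domains on P67 islands favours regions high at P67, the 2 ages also differ in housing, and the single P32 library gives no spread of its own. Covered share averaged 80.2% ± 6.89 over the P67 libraries (SD, n = 4) and stood at 60.8% in P32, a difference of -19.4 points (P32 minus P67). Shorter shared autosomal regions stood at 68.0% ± 10.6 in P67 and 39.2% in P32, and the 56 long regions of Z at 79.5% ± 8.88 in P67 and 58.4% in P32. Reads per covered kb, not scaled for depth, were 25.8 and 38.6 in Isolate, 26.1 and 44.2 in Tutored and 43.9 in P32, so P32 lay inside the P67 range. Of the 276 domains, 256 had a P32 island (92.8%, beside 59.5% of all 7627 shared autosomal regions and 71.4% of the 1377 regions of 10 to 20 kb). The long Z regions had a P32 island at 51 of 56 (91.1%), so a high share is not particular to the domains. A longer region has more room for an island, and the part of length in these shares was not tested. P32 cover lay below all 4 P67 libraries at 160 domains (58.0%, beside 55.6% of shared autosomal regions) and above all 4 at 32 (11.6%, beside 7.19%). In CPM, P32 was below all 4 at 174 domains (63.0%, beside 69.2%) and above all 4 at 46 (16.7%, beside 10.3%). In both measures a region without a P32 island was placed below all 4 and could not be above. Its P32 reads are in truth unknown. Such regions were a larger part of all shared autosomal regions than of the domains, so these shares do not compare like with like. The shares among regions with a P32 island were not computed.

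In P32 cover, 113 domains had at least 75%, 104 had 25% to 75%, 39 had less than 25% and 20 had no island. The 4 classes differed in some other measures that the selection did not use, but little in the presence of H3K27me3. Median H3K27me3 cover at P67 was 96.5% in the class of at least 75% P32 cover, 90.5% in the class of 25% to 75%, 83.5% in the class under 25% and 59.4% in the class with no P32 island. H3K27me3 itself was present in all 4 P67 libraries at 98 of the 113 (86.7%), 94 of the 104 (90.4%), 35 of the 39 (89.7%) and 17 of the 20 domains (85%). These shares were close to each other. H3K4me3 was present in all 4 P67 libraries at 27 of the 113, 10 of the 104, 1 of the 39 and 0 of the 20 domains. Pol II was present in all 4 at 13 of the 113, 1 of the 104, 0 of the 39 and 0 of the 20 domains. H3K9me3 itself was also denser at P67 where P32 was covered, with medians of 16.8, 10.9, 8.25 and 6.55 CPM per kb in the same order of classes. Across the 276 domains, P32 cover had a Spearman correlation of 0.69 with that P67 density, 0.62 with P67 cover, 0.24 with P67 H3K27me3 cover (Pearson 0.04), 0.16 with length and -0.43 with the distance to the chromosome end. The points share libraries and chromosomes, and these are descriptions.

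Of the 113 domains with at least 75% P32 cover, 37 were on chromosomes of at least 50 Mb, 32 on those of 20 to 50 Mb and 44 on smaller ones, and of the 20 with no P32 island 16, 4 and 0 were. The 3 longest domains fully covered in P32 were on small chromosomes or linkage groups. The domain chr27:4155601-4197200 had 3824 and 5030 reads in Isolate, 3627 and 6449 in Tutored and 7384.5 in P32, over 97.6% to 100% of its length. The next were LGE22:549601-587200, with 88.3% to 100% covered in P67, and chr28:104601-137200, with 82.2% to 90.8% covered in P67. The 3 longest domains with no P32 island, the third of them in a tie, were on large chromosomes, and in P67 their cover depended on the replicate. At chr4:14356401-14386800 islands covered 27.6 and 9.8 kb in Isolate and 23.8 and 7.0 kb in Tutored. At chr3:63967401-63995800 they covered 22.2 and 14.2 kb in Isolate and 27.6 and 11.2 kb in Tutored, and at chr2:147116001-147143400 they covered 26.2 and 10.4 kb in Isolate and 19.2 and 4.6 kb in Tutored. Replicate 2 was the lower one in both groups at all 3 of these domains. The chr2 domain was tied in length, at 27.4 kb, with chr3:30793001-30820400. That domain also had no P32 island, and its mean P67 cover was 71.9%.

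By chromosome size the difference between the ages was greatest on large chromosomes and turned round on small ones. On chromosomes of at least 50 Mb, 139 domains were covered to 86.6% and 71.8% in Isolate, 85.6% and 69.7% in Tutored and 50.5% in P32. The 87 domains on chromosomes of 20 to 50 Mb were covered to 85.2% and 74.8% in Isolate, 86.2% and 72.5% in Tutored and 60.7% in P32. On chromosomes under 20 Mb, 50 domains were covered to 87.8% and 84.6% in Isolate, 86.6% and 86.1% in Tutored and 90.2% in P32, and 44 of the 50 had at least 75% P32 cover. Cover of whole chromosomes moved the same way in the large and small classes, but not on those of 20 to 50 Mb. P67 islands covered 5.43% to 6.54% of the small chromosomes and P32 islands 16.7%, while large chromosomes were covered to 5.35% to 7.92% in P67 and 4.32% in P32. Chromosomes of 20 to 50 Mb were covered to 5.28% to 6.89% in P67 and 7.91% in P32, although the domains there were less covered in P32. The part of this library-wide difference in the domains' values was not tested.

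**Figure D4:**
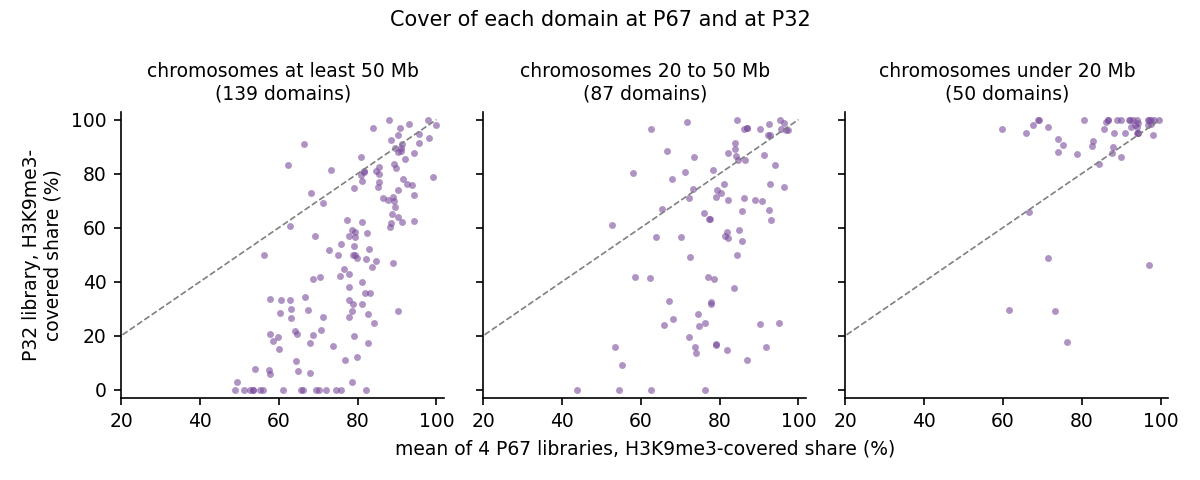
H3K9me3-covered share of each domain in the P32 library (vertical axis, %) against the mean of the 4 P67 libraries (horizontal axis, %), in 3 panels by chromosome length; the dashed line marks equal cover. Most domains on large chromosomes lie below the line, down to 0, and most of the 50 on small chromosomes lie at or above it.

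Tested on reads, 1 of the 256 domains with a P32 island was called with edgeR's quasi-likelihood test over 5442 regions, and it was lower in P32 (percent called 0.0184 lower, 0.0184 higher and 0.0368 either way). This was chr3:31410401-31461000, with 685 and 1044 reads in Isolate, 783 and 879 in Tutored and 36 in P32 (log2 fold of P32 over P67 -4.44, SE 0.35, edgeR adjusted p = 0.0230). All 4 P67 libraries were far above P32 in island reads. Islands covered 2.77% of this domain in P32 and 78.7% on average in P67. The P32 reads outside its islands are unknown, so the fold also holds the difference in called length. An unadjusted p under 0.05 was found at 132 domains (1254 of all regions), and the count of calls depended on the fit. It was 183 (71.5%, beside 31.1% of all regions) with the replicate number as a block, a fit that puts P32 in replicate 1, which no label states. It was 73 (28.5%, beside 8.18%) with DESeq2 and 0 (beside 0.0184%) with covered length as an offset. That offset took the place of library size, so the last fit was not scaled for depth and its count is not comparable. Leaving out 1 P67 library gave 45 calls without Isolate replicate 1 (beside 3.53% of all regions), 64 without Isolate replicate 2 (beside 6.14%), 49 without Tutored replicate 1 (beside 4.1%) and 58 without Tutored replicate 2 (beside 4.19%). Calls of the block and DESeq2 fits and of each fit with 1 library left out went both ways. More were lower than higher in P32, by little under the block. Domains are longer and hold more reads than most tested regions, and the part of this in the shares called was not tested. Fitted folds ran from -4.44 to 1.66 with a median of -0.06, against -0.03 over all regions. Folds of 62 domains were below -1 and those of 16 above 1. TMM scales reads to the bulk of the tested regions, so these folds cannot show a change shared by most of them.

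Stretches of the same chromosome differed widely in P32. The 4 domains within chr3:29071201-29216000, which were covered to 88.4% to 99.1% on average in P67, had P32 cover of 78.9% to 98.2%. The 3 domains within chr3:30733401-30876800 had 49.5% to 71.9% on average in P67 and 0% to 7.20% in P32. The called domain lies beyond these, and the 2 domains after it, chr3:31469001-31497200 and chr3:31508601-31529000, had 79.8% and 68.6% in P67 and 48.9% and 41.2% in P32. H3K27me3 covered 98.3% to 100% of the first group's domains at P67 and 76.2% to 85.6% of the second group's.

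Domains occurred on 29 of 34 autosomes and linkage groups, and many lay near another domain. Their density was 0.234 per Mb on chromosomes of at least 50 Mb, 0.403 on those of 20 to 50 Mb and 0.359 on those under 20 Mb, while Z had 0.769 regions of the same kind per Mb. Shared autosomal regions of any length were most dense on the large chromosomes, at 8.65 per Mb, against 6.80 and 7.36 per Mb on the other size classes. Chromosome 3 had 57 domains (0.506 per Mb), more than any other autosome, and chromosome 2, the longest, had 33 (0.211 per Mb). LGE22 had 4 domains, which filled 18.8% of its length as far as islands reach. On chromosomes of at least 20 Mb, 9.73% of 226 domains lay within 1 Mb of an end, which holds 3.46% of the length, and 4.88% of the 6376 shorter regions did. The 51 domains within 1 Mb of an end, on chromosomes of any size, had a median P32 cover of 92.1%, against 56.6% for the 225 farther in. Position and chromosome size go together here, since 29 of the 51 were on chromosomes under 20 Mb. On chromosomes of at least 20 Mb the median P32 cover was 72.5% at the 22 domains near an end and 52.0% at the 204 farther in, and on smaller ones 97.3% at 29 and 94.9% at 21. Another domain lay within 100 kb of 143 domains (51.8%) and within 10 kb of 56 (20.3%). The same shares were not computed for other regions. Chained at gaps of up to 500 kb, 142 domains fell into 36 clusters of at least 3, the largest being chr11:7641401-8397200 with 8 domains, chr15:9372801-9917400 with 7 and chr6:15473201-16362600 with 7. P32 cover was mixed within each of these clusters, from 0% to 71.4%, from 17.8% to 100% and from 13.5% to 86.6%. Domains filled from 8.45% (chr3:73217201-74102800) to 98.0% (LGE22:549601-718800) of a cluster's span, so some neighbours are parted only by short gaps.

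The most widespread second mark in the domains was H3K27me3. It covered 75.7% and 72.3% of the domains' bases in Isolate, 77.6% and 70.2% in Tutored and 69.2% in P32. Shorter shared regions were covered to 57.5% and 50.8% in Isolate, 59.2% and 49.5% in Tutored and 44.1% in P32. The domains thus stood above shorter regions in each of the 4 P67 libraries, by 19.7 ± 1.65 points (SD, n = 4, exact sign-flip permutation p = 0.125, two-sided, the smallest 4 libraries can give), and by 25.03 points in P32. Against regions of 10 to 20 kb the difference was 10.9 ± 1.93 points and against the long Z regions 21.6 ± 1.71 points, each with the same exact p and the same direction in 4 of 4 libraries. H3K27me3 was present in all 4 P67 libraries at 244 domains (88.4%, beside 54.8% of shared autosomal regions) and in none at 18 (6.52%, beside 26.6%). In P32 it was present at 242 domains (87.7%, beside 51.7%). Here too a longer region has more room for an island, and the part of length was not tested. For 150 domains the whole length lay inside 1 H3K27me3 region shared by the 4 libraries, a count not made for shorter regions. In the other direction, 187 of the 1384 shared H3K27me3 regions of at least 20 kb (13.5%) overlapped a domain.

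The relation of H3K27me3 to the domains differed by chromosome size. On large chromosomes H3K27me3 covered 75.6% and 70.0% of the domains in Isolate, 77.5% and 66.9% in Tutored and 64.2% in P32, above the shorter regions there (48.7% and 39.5% in Isolate, 49.98% and 38.1% in Tutored, 30.6% in P32). On small chromosomes it covered 58.4% and 61.9% in Isolate, 62.9% and 62.3% in Tutored and 64.8% in P32, below the shorter regions there (72.4% and 74.5% in Isolate, 76.2% and 74.0% in Tutored, 74.9% in P32). The order was the same in all 5 libraries for both classes. The 4 LGE22 domains are an example, with mean P67 H3K27me3 of 0.488% to 20.9% beside H3K9me3 of 92.0% to 97.6%.

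H3K27me3 reads passed the test at no region over a domain, between the rearing groups or between the ages. Of 273 shared H3K27me3 regions that overlap a domain, edgeR's quasi-likelihood test called 0 between Isolate and Tutored (percent called 0 of 14211 regions, 1 with an unadjusted p under 0.05, 0 by DESeq2). Between P32 and P67 it called 0 of 261 (percent called 0 of 11902 regions, 43 with an unadjusted p under 0.05). There DESeq2 called 13 (4.98%, beside 2.18% of all regions), and the fit with the replicate block, with P32 placed as above, called 82 (31.4%, beside 20.4%). The DESeq2 calls were mostly lower in P32, and those of the block fit were more often higher. Median length was 26.8 kb for the H3K27me3 regions over domains and 7.4 kb for the other shared ones. The part of length in these shares was not tested. Covered share of the domains averaged 74.0% ± 2.41 in Isolate and 73.9% ± 5.29 in Tutored (SD, n = 2 each, exact permutation p = 1, two-sided).

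**Figure D5:**
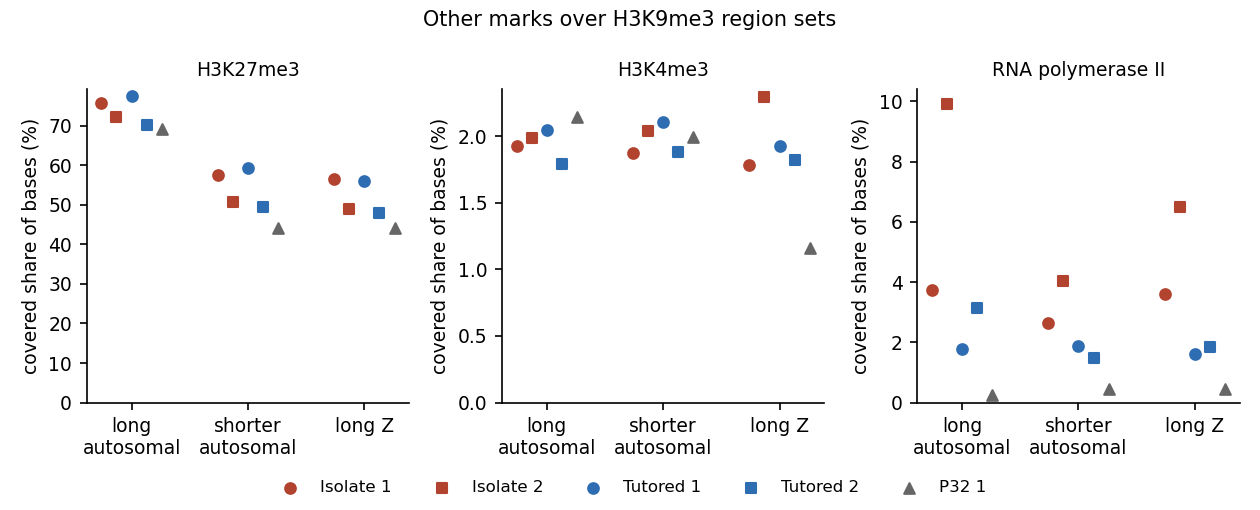
Share of bases covered by H3K27me3, H3K4me3 and Pol II (vertical axes, %, each from 0) in the long autosomal domains, shorter shared autosomal regions and long Z regions, 1 point per library (circles replicate 1, squares replicate 2, triangle P32). H3K27me3 is higher in the domains than in both other sets in all 5 libraries, and Pol II is highest in Isolate replicate 2 (9.93% of the domains) and lowest in P32 (0.236%).

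H3K4me3 was sparse in the domains. It covered 1.92% and 1.98% of their bases in Isolate, 2.05% and 1.79% in Tutored and 2.15% in P32, against 3.44% to 4.80% of the genome. It was present in all 4 P67 libraries at 38 domains (13.8%, beside 4.41% of shared autosomal regions), in 1 to 3 at 34 and in none at 204 (73.9%, beside 91.8%). The base share in shorter regions was alike, from 1.87% to 2.10%, so more of the domains had an island while the share of bases was much the same. P32 had H3K4me3 at 70 domains (25.4%, beside 7.47%). The 38 domains had a median P32 H3K9me3 cover of 92.5%, against 56.7% at the 204 without H3K4me3, at median lengths of 24.0 and 24.6 kb. Inside the domains, 99.1% of P32 H3K4me3 bases lay on P32 H3K9me3 islands, although these covered 60.8% of the domains. In P67 that share was 84.99% and 85.2% in Isolate and 86.7% and 90.2% in Tutored, where H3K9me3 covered 73.5% to 86.4%. The 2 marks were measured in separate libraries of whole tissue, so cells with one and cells with the other cannot be told apart from cells with both.

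The domain with the most H3K4me3 was chr1:25380601-25406000 (25.4 kb). H3K4me3 covered 66.9% and 63.0% of it in Isolate, 64.6% and 63.8% in Tutored and 45.7% in P32, and Pol II covered 65.4% and 50.4% in Isolate, 63.8% and 31.5% in Tutored and 33.9% in P32. H3K27me3 covered 100% of it in all 5 libraries, and H3K9me3 98.4% and 78.0% in Isolate, 72.4% and 89.8% in Tutored and 81.1% in P32. All 4 signals were thus called within the same 25.4 kb at both ages, with H3K4me3, Pol II and H3K9me3 over part of it. The bases that all 4 shared were not computed. Next came chr15:9761201-9782800, with H3K4me3 over 33.3% and 41.7% in Isolate, 41.7% and 38.0% in Tutored and 23.1% in P32, and chr1:39482801-39504400, with 32.4% and 36.1% in Isolate, 28.7% and 23.1% in Tutored and 15.7% in P32. These 3 were picked for high P67 H3K4me3, and over all domains P32 cover was 2.15%, above each of the 4 P67 libraries.

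Pol II varied more between libraries than the histone marks did. It covered 3.75% and 9.93% of the domains' bases in Isolate, 1.78% and 3.16% in Tutored and 0.236% in P32. The genome was covered to 9.08% and 5.94% in Isolate, 9.00% and 3.95% in Tutored and 5.10% in P32. Both Isolate libraries were above both Tutored libraries, a difference of 4.37 points between group means of 6.84% ± 4.37 and 2.47% ± 0.975 (SD, n = 2 each, exact permutation p = 0.333, two-sided, the smallest possible). The Pol II share of island reads in the domains, 0.231% and 1.04% in Isolate and 0.122% and 0.488% in Tutored, overlapped between the groups (exact permutation p = 0.667), as did domain cover over genome cover. The comparison was chosen after the values were seen. With the same number of Pol II islands per library (8589), Isolate stood at 0.567% and 3.72% and Tutored at 0.231% and 3.16%, a difference of 0.450 points. The groups then overlapped, and within each replicate number Isolate was the higher. The full lists held 19656 and 15198 islands in Isolate and 18311 and 8589 in Tutored. In replicate 1, 62 domains (22.5%) had Pol II in Isolate and 28 (10.1%) in Tutored. In replicate 2, 96 (34.8%) had it in Isolate and 45 (16.3%) in Tutored. Shorter shared regions had the same direction, with Pol II at 5.63% of them in Isolate and 4.24% in Tutored in replicate 1 and at 8.16% and 3.18% in replicate 2, as had the long Z regions. More of the domain was covered in Isolate than in Tutored in both replicates at 46 domains, and less in both at 1 (2.92% and 0.184% of all shared autosomal regions). On reads, edgeR's quasi-likelihood test called 0 of 24 shared Pol II regions over domains (percent called 0 of 5209, 3 with an unadjusted p under 0.05). DESeq2 called 0 (beside 0.0192% of all regions), and edgeR without Isolate replicate 1 called 2 (beside 0.269%).

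Pol II was present in all 4 P67 libraries at 14 domains (5.07%, beside 1.61% of shared autosomal regions), in none at 163 (59.1%, beside 87.9%) and in P32 at 9 (3.26%, beside 1.15%). The domain with the most Pol II, chr24:7365801-7387200, had it over 43.9% and 96.3% in Isolate, 32.7% and 60.7% in Tutored and none in P32. It is also 1 of the 2 domains with the lowest H3K9me3 fold between rearing groups, and its H3K9me3 covered 11.8 and 12.4 kb in Isolate, 13.8 and 19.8 kb in Tutored and 21 kb in P32. The next, chr15:14366201-14390800, had Pol II over 39.0% and 78.9% in Isolate, 38.2% and 56.1% in Tutored and none in P32, while H3K9me3 covered 88.6% to 96.7% at P67 and 95.1% in P32. The third was the chr1 domain with the most H3K4me3. Within each replicate number Isolate was above Tutored at all 3 of these.

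Input reads, given for the replicate 2 H3K9me3 islands, show how far the domains stand above sonicated tissue without an antibody. Islands in the domains held 15.4 input reads per covered kb in both Isolate and Tutored, against 15.2 and 15.4 in shorter regions. The domains' input density ran from 6.32 to 33.1 per covered kb, and 1 domain was at 2 times the median or more. H3K9me3 reads were 2.51 times the input reads in Isolate and 2.87 times in Tutored, against 2.07 and 2.28 times in shorter regions and 2.68 and 3.09 times in the long Z regions. These ratios are not scaled for the depth of the 2 libraries. The authors' deposited tables scale it and give a fold over input for each island. Its median was 2.82 in Isolate and 2.93 in Tutored for the domains, against 2.78 and 2.89 for shorter regions. The ratios above pool the reads of all islands, while this is a median over islands, so the 2 measures do not compare like with like. Depth scaling is 1 factor per library, the same for the domains and the shorter regions. The ratio of single domains ran from 0.942 to 12.3 in Isolate and from 1.01 to 13.6 in Tutored. Highest in both was chr13:16854601-16875000, a domain named for that value, with 18.1% mean P67 H3K27me3 cover and 87.3% P32 H3K9me3 cover. The 18 domains without H3K27me3 at P67 had median ratios of 3.18 in Isolate and 3.62 in Tutored, against 1.91 and 2.00 at the 244 with H3K27me3 in all 4 libraries.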

How the data were processed

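ChIP-seq libraries of H3K9me3, H3K27me3, H3K4me3 and Pol II were used (20 in all); the 3 input samples' own files were not analysed here. Per the submitters' processing notes BWA 0.6.1, SICER 1.1 and MACS were used, with no role given; no source used here names the genome build. The deposited lists hold islands called per library with the count of ChIP reads in each. Lists of replicate 2 of H3K9me3, H3K27me3 and Pol II also hold, per island, values that the authors deposited: an input read count, a fold (ratio) over input, a p-value and a q-value. The deposited file names carry a 200 bp window, a 600 bp gap (200 bp for H3K4me3) and a rate of 1E-5.

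Labels gave the groups. File names of H3K4me3 replicate 1 carry the other rearing group's letter and those of Pol II replicate 1 another replicate number, and the labels were followed. Members and lists were chosen with earlier results of these data known.

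Islands that overlapped or touched were merged with Python 3.11.15. Reads of an island that crosses a domain's end were split by length. Chromosome lengths are the highest island end in any list. Reads were tested with edgeR 4.0.16 (glmQLFit, robust, TMM, adjusted p under 0.05) in R 4.3.3, over all shared regions. Alternatives were RLE factors, DESeq2 1.42.0, a mean of at least 50 reads, a replicate block, a covered-length offset, uncalled P32 as 0 reads, other lengths and merging gaps, equal island numbers and each P67 library left out. The covered-length offset took the place of library size and TMM factors, so that fit was not scaled for depth. The replicate 1 P67 input is labelled as a pool of Tutored and Isolate, and the replicate 2 input label gives only its number. Replicate numbers were taken to pair the P67 libraries. The main fits and the permutation tests between rearing groups left this pairing out, and the replicate block fits used it. Deviations of same-numbered libraries from group means correlated at r = 0.42 for H3K9me3, 0.61 for H3K27me3 and 0.62 for Pol II. The tests were tested on simulated data.

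Domains named are the 10 longest, those called (or the 2 highest and 2 lowest Isolate over Tutored folds with both replicates the same way), the 3 largest and 3 smallest in P32 share (ties by length), 2 on each side of the limit, the 3 with the most H3K4me3 and the 3 with the most Pol II; members of 3 chromosome 3 groups, LGE22 and chr13:16854601-16875000 were added after their values were seen.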

Additional observations from a re-analysis of the deposited data

How the results depend on the processing

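The number of domains depends on the rule: 513 with islands within 1000 bp merged, 631 at 15 kb, 68 at 30 kb, and 179 to 242 with 1 P67 library left out (180 without Isolate replicate 1, 179 without Tutored replicate 1). H3K9me3 calls between Isolate and Tutored were 0 in each alternative run (0 to 0 with 1 library left out), and the replicate block changed none. For P32 against P67 the 1 call of 256 became 32 with RLE factors (12.5%, beside 1.36% of all regions), 73 with DESeq2 (28.5%, beside 8.18%), 183 with the replicate block (71.5%, beside 31.1%), 126 with the block by DESeq2 (49.2%, beside 15.9%, added after the data were seen), 105 of 276 with uncalled P32 as 0 reads (38.0%, beside 47.6%), 0 with the length offset and 45 to 64 with 1 library left out. For H3K27me3 the 0 calls became 13 with DESeq2, 82 with the replicate block, 93 with the block by DESeq2 (35.6%, beside 1553 of 11902 regions) and 16 with uncalled P32 as 0 reads (5.86%, beside 16.6%), and stayed 0 without any 1 P67 library. H3K9me3 calls between the ages went both ways in each fit with more than 1 call, with more lower than higher in P32. H3K27me3 calls between the ages were more often higher in P32 with the block and lower otherwise. The length-offset fit was not scaled for library depth. The part of read number in the shares called was not tested. The other values: the P32 minus P67 difference in cover ranged from -14.2 to -21.4 points by setting and from -23.7 to -14.6 without 1 library. The H3K27me3 difference from shorter regions was 19.1 to 20.2 points without 1 library. H3K4me3 cover was 2.27% at 15 kb, 1.06% at 30 kb and 1.90% to 1.98% without 1 library, and Pol II cover 2.89% to 5.61%. The Pol II difference between Isolate and Tutored was 0.450 points with equal island numbers and 1.28 (without Isolate replicate 2) to 7.46 points (without Isolate replicate 1) with 1 library left out, and its calls were 0 to 2 (2 without Isolate replicate 1). The causes were not tested. Depth is known only inside islands.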

Other observations

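At 10 of the 276 domains no P67 library had an island of H3K27me3, H3K4me3 or Pol II, so H3K9me3 was the only mark called there at day 67. They had a median length of 23.9 kb and a median P32 H3K9me3 cover of 61.8%, and 1 had H3K27me3 in P32. The share of such regions among all shared autosomal regions was not computed. Of the 10, 5 are on chromosome 2 and 2 on chromosome 7. The 2 on chromosome 7 are neighbours with different P32 cover. H3K9me3 covered 97.7% and 95.5% of chr7:17998001-18024600 in Isolate, 100% and 91.7% in Tutored and 75.2% in P32, and 91.5% and 87.6% of chr7:18026801-18052600 in Isolate, 100% and 68.2% in Tutored and 10.9% in P32. The highest ratio of H3K9me3 to input reads among the 10 was at chr27:3275201-3296800, 8.32 in Isolate and 9.27 in Tutored, with 96.3% and 96.3% of it covered in Isolate, 96.3% and 99.1% in Tutored and 100% in P32.

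A far larger kind was that of 124 domains (44.9%) with H3K27me3 in all 4 P67 libraries and neither H3K4me3 nor Pol II in any. Their median P32 H3K9me3 cover was 35.0%, and 17 of the 20 domains with no P32 island were among them. H3K4me3 and Pol II were each present in all 4 P67 libraries at 6 domains, whose median P32 H3K9me3 cover was 96.6%. The shares of these kinds among all shared autosomal regions were not computed. Median P67 density of H3K9me3 was 9.53 CPM per kb in the 124 and 18.7 in the 6, so the kinds differ in how strong the mark was as well, and the part of that in the P32 values was not tested.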
